A study of Arabidopsis thaliana with 27 samples.

Results

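The root triterpene gene clusters of Arabidopsis thaliana were followed through 10 genes out of the 34262 rows of the deposited table. The genes were taken by their identifiers from 3 chromosomal neighbourhoods: 4 genes of the thalianol cluster, 2 of the marneral cluster and 4 of the arabidiol and baruol region. They were chosen by cluster with their normalized counts and fold changes in all 9 groups in view, so these values are a description and carry no p-value. Calls of members are given below only to describe where they stood in a fit over all genes, and are not tests of them. The same holds for counts of members by unadjusted p and for calls kept or lost when a library was left out. No cut-off on a value was part of the choice. All 10 reached 10 normalized counts in 3 or more libraries, the filter used for tests.

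Oxidosqualene cyclases fold the linear precursor oxidosqualene into triterpene skeletons, and the same precursor feeds sterol synthesis. In Arabidopsis some of these cyclases lie beside the cytochrome P450s and acyltransferases that modify their products, so that genes of consecutive pathway steps are neighbours on the chromosome. The thalianol and marneral clusters are known as root-expressed clusters, and products of these pathways are known to shape the bacteria living on the root.

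The libraries came from roots of seedlings 10 days old, kept in liquid MS medium, with 20 seedlings per treatment. Wild-type Col-0 was given DMSO for 2 h (Col_NT), I3C (indole-3-carbinol, which forms when indole glucosinolates are broken down) at 200 µM (Col_200) or 400 µM (Col_400) for 2 h, or had each leaf pinched 3 times with tweezers and its roots taken after 8 h (Col_w). ICT1-2 and ICT1-8098 are homozygous lines labelled as overexpressing S30 from a 35S promoter. The transgene of the first was made in the submitters' laboratory, whereas the second comes from a collection of full-length cDNA overexpressors, and each is a single line. ICT1-2 was given DMSO (ICT1-2_NT), 200 µM or 400 µM I3C, and ICT1-8098 was given DMSO (ICT1-8098_NT) or 200 µM I3C. Each group had 3 libraries in the table except ICT1-2_NT, which had 2. The labels do not state that replicates were separate cultures, so errors measure the spread between these libraries. The wounded roots differed from Col_NT in sampling time and in the absence of DMSO as well as in wounding, and the 3 cannot be told apart.

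The 26 libraries held 9503924 to 19433428 reads on genes. RPS30A, 1 of the genes encoding the S30 ribosomal protein, stood at 2659 ± 728 normalized counts (SD, n = 3) in Col_NT, 2429 ± 540 (SD, n = 2) in the libraries labelled ICT1-2_NT and 5743 ± 821 (SD, n = 3) in ICT1-8098_NT. It was higher in ICT1-8098_NT (log2 change 1.14, adjusted p = 0.000649 by limma with Benjamini-Hochberg adjustment) and did not pass the test in ICT1-2_NT (log2 change -0.11, adjusted p = 0.796), and which gene copy the labels mean by S30 is not stated in them. Levels of the other S30 genes were not examined, so overexpression in ICT1-2 cannot be judged from RPS30A alone. Markers of root hairs, meristem, endodermis and stele were detected in all libraries, as were shoot photosynthesis markers, whose summed level over 11 genes ran from 654 to 7956 normalized counts. In bulk roots, fewer cells of a type and less RNA per cell cannot be told apart.

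In the thalianol cluster, THAS1 (AT5G48010, the cyclase that makes thalianol) lies at chromosome 5, 19456837 to 19461706, on the plus strand. CYP708A2 (AT5G48000, the P450 that hydroxylates thalianol) lies at 19444103 to 19447866 on the minus strand, CYP705A5 (AT5G47990, the P450 that desaturates the next intermediate) at 19434758 to 19436749 on the plus strand, and AT5G47980 (a BAHD-type acyltransferase) at 19428888 to 19430517 on the plus strand. In the marneral cluster, MRN1 (AT5G42600, marneral synthase) lies at chromosome 5, 17053453 to 17058245, plus strand, and CYP71A16 (AT5G42590, which oxidizes marneral products) at 17031024 to 17033800, minus strand. The remaining 4 genes lie on the minus strand of chromosome 4: CYP705A1 (AT4G15330, a P450 that cleaves arabidiol) at 8751320 to 8753297, PEN1 (AT4G15340, arabidiol synthase) at 8754440 to 8760600, BARS1 (AT4G15370, baruol synthase) at 8773730 to 8779685, and AT4G15390 (an HXXXD-type acyltransferase) at 8792707 to 8794442. Coordinates are those of the deposited table on TAIR10.

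The 250 bases upstream of 7 of the genes are shown, because these genes carry the results: the 4 thalianol genes, whose wounded libraries lay above all Col_NT libraries, and the 3 chromosome 4 genes that were lower in every I3C comparison. The windows come from the RefSeq TAIR10.1 genome, in which 99.969% of the table's genes on nuclear chromosomes have the same start, and each is written 5′ to 3′ on the strand of its gene. Capitals mark matches on either strand to any of 4 motifs. The core promoter motif was searched as TATAAA. The core of the W-box, bound by WRKY factors, was searched as TTGAC. The core of abscisic acid response elements was searched as ACGTG, which also lies within the G-box. The core of the as-1 element was searched as TGACG. The thalianol windows lie at chr5:19456587-19456836 (plus), chr5:19447867-19448116 (minus), chr5:19434508-19434757 (plus) and chr5:19428638-19428887 (plus).
THAS1: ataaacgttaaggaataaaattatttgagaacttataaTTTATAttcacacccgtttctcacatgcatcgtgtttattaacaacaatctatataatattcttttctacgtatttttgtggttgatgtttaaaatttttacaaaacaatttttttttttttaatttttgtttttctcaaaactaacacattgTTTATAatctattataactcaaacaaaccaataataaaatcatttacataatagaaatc
CYP708A2: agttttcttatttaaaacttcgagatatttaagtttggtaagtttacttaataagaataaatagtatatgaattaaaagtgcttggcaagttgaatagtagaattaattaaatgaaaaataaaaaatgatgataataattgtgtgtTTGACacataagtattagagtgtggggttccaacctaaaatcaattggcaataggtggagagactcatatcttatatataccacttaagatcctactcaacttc
CYP705A5: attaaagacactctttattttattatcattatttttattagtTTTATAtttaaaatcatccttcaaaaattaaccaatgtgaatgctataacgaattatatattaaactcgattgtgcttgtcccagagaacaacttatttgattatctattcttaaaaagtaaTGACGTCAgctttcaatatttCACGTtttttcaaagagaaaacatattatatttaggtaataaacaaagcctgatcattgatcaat
AT5G47980: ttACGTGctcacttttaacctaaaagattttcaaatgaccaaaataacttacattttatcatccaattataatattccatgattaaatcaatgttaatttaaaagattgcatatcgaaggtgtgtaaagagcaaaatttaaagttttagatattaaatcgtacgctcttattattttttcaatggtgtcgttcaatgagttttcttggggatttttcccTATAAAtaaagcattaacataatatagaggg
The windows of the chromosome 4 genes, all on the minus strand, lie at chr4:8760601-8760850, chr4:8753298-8753547 and chr4:8794443-8794692.
PEN1: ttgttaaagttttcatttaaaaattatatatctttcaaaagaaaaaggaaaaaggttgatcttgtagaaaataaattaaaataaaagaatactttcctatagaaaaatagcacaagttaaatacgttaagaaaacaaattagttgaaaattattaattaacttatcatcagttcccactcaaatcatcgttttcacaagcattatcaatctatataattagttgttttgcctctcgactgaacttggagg
CYP705A1: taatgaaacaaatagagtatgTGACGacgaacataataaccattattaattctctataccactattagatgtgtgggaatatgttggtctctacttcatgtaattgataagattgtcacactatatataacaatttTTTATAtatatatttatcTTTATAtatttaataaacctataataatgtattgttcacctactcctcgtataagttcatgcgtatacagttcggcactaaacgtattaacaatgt
AT4G15390: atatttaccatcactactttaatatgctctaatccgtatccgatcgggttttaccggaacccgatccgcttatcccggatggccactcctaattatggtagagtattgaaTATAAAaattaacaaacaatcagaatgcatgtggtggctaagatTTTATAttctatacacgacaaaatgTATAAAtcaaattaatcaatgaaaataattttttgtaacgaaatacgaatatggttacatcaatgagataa
G and C made up 20.8% to 32% of the bases of the 10 windows, against a median of 31.2% over 27443 protein-coding genes. The windows of CYP71A16 (31.6%) and AT4G15390 (32%) lay above that median and the others below it. Across the 10 members, TATAAA was in 8 windows (47.3% of all windows hold it), TTGAC in those of CYP708A2, MRN1 and CYP71A16 (44.9% of all), TGACG in those of CYP705A5, CYP705A1 and BARS1 (18.6% of all) and ACGTG in those of CYP705A5 and AT5G47980 (22.9% of all). The G-box, searched as CACGTG, was in no member window and in 6.49% of all windows. The ethylene response motif GCCGCC was in no member window either, and in 1.87% of all. Nor was the core of the heat shock element, searched as GAANNTTC, which 9.55% of all windows hold. In CYP705A5 the run TGACGTCA holds 2 overlapping as-1 cores, 1 on each strand. None of the motifs searched was in all 4 thalianol windows, and the PEN1 window held none of them.

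In DMSO-treated wild-type roots the members spanned a wide range of levels. On the scale of normalized counts per kilobase of exon, AT4G15390 was the highest at 1706 ± 208 (SD, n = 3), followed by CYP708A2 at 299.7 ± 36.9 and CYP705A1 at 241 ± 18.2. The cyclases themselves were lower than the modifying enzymes beside them: PEN1 stood at 129 ± 46.4, THAS1 at 33.2 ± 13.5, BARS1 at 10.96 ± 7.40 and MRN1 at 0.939 ± 0.629 normalized counts per kilobase. MRN1 rested on 5, 1 and 3 reads in the 3 Col_NT libraries, so its folds against that group are imprecise. In wounded roots THAS1 reached 1403 ± 293 per kilobase, between CYP705A5 at 1112 ± 175 and CYP708A2 at 1808 ± 378 with overlapping errors, whereas in Col_NT it was the lowest of the 4 thalianol genes.

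**Figure D1:**
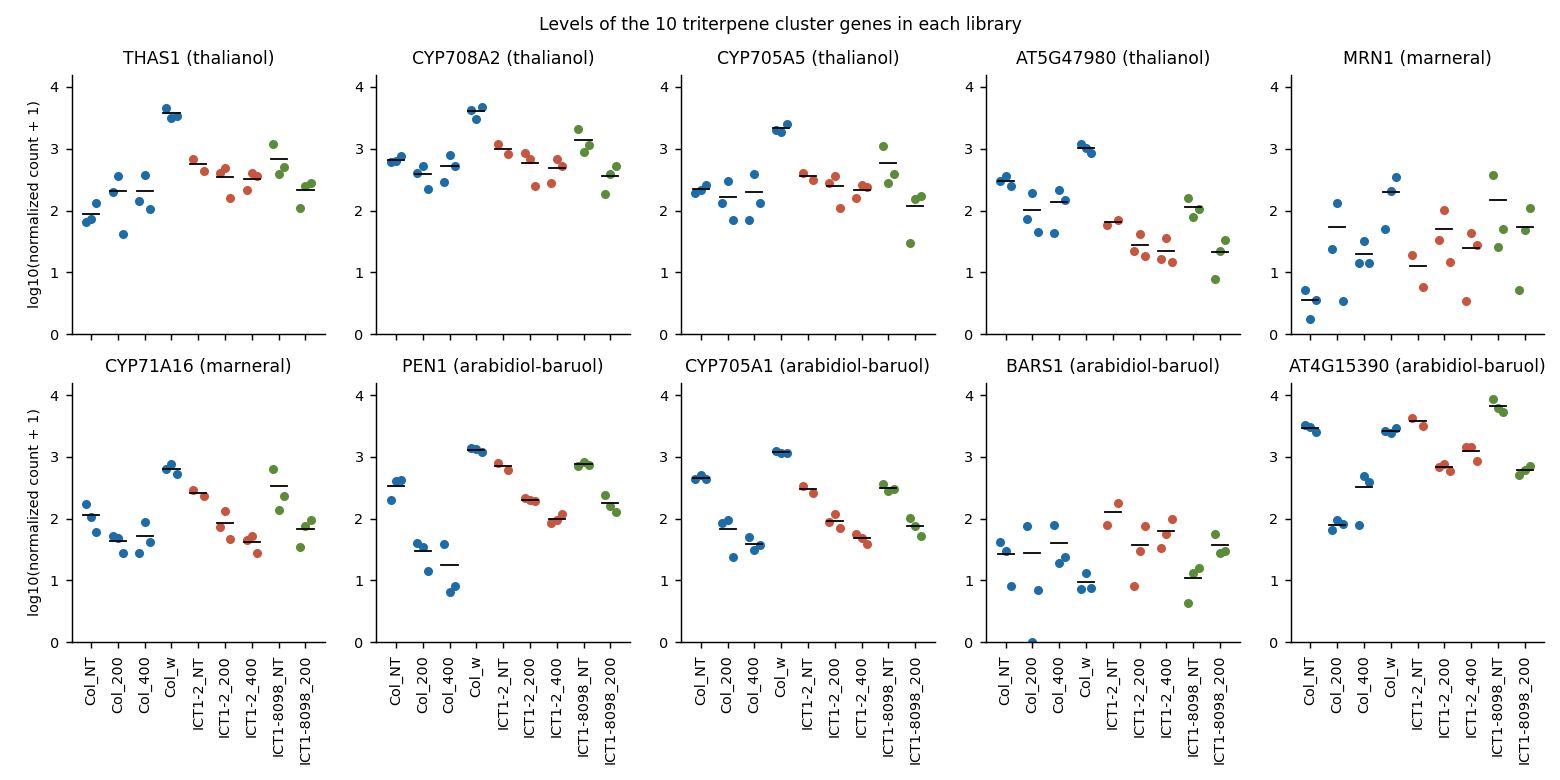
Levels of the 10 members in all 26 libraries, as log10(normalized count + 1), by group; each dot is a library and each bar the group mean. Wounded Col-0 roots (Col_w) lie above every other group for the 4 thalianol genes and PEN1, while AT4G15390 is lowest in Col-0 roots given I3C.

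Wounding the leaves was accompanied by higher levels of the whole thalianol cluster in the roots. THAS1 was at 63.4, 71.9 and 129 normalized counts in the Col_NT libraries and 4621, 3189.6 and 3372 in the Col_w libraries, 43.3-fold higher on the log2(normalized count + 1) scale used for all folds here (log2 change 5.44 (SE 0.61)). The lowest wounded library stood above every other library of the series for this cyclase. CYP708A2 went from 604, 631 and 757 to 4289.7, 3064 and 4663 normalized counts (log2 change 2.58 (SE 0.46)), and CYP705A5 from 190.3, 210.2 and 253 to 1989.7, 1876 and 2504 (log2 change 3.28 (SE 0.64)). The acyltransferase AT5G47980 went from 298, 362 and 248 to 1174, 1039 and 862 (log2 change 1.76 (SE 0.56)). For all 4 genes the wounded libraries lay above all Col_NT libraries without overlap. The first step of the pathway thus changed most and the acyltransferase least. The latter was not called in the limma fit across all genes, while limma-voom on the recovered reads and the authors' deposited table called it higher.

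The marneral pair was also higher after wounding. MRN1 had 4.12, 0.770 and 2.63 normalized counts in Col_NT and 49.6, 208 and 341 in Col_w (log2 change 5.58 (SE 1.25)), with a wide spread among wounded libraries. CYP71A16 had 169.7, 107 and 60.6 and 638, 752 and 532 (log2 change 2.61 (SE 0.52)). Neither gene's groups overlapped. The call for MRN1 was lost with limma-voom and without Col_NT replicate 4, Col_w replicate 2 or Col_w replicate 4, and its log2 change ran from 4.43 to 6.38 over the alternatives.

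In the arabidiol and baruol region the genes differed. PEN1 had 200.2, 410.4 and 414 normalized counts in Col_NT and 1368, 1348 and 1187 in Col_w (log2 change 2.00 (SE 0.46)), and CYP705A1 had 443, 499 and 436 and 1251, 1135 and 1158 (log2 change 1.36 (SE 0.35)). Both lay higher in wounded roots with no overlap, so synthesis and cleavage of arabidiol were represented by the same direction. AT4G15390 did not separate, at 3249.5, 3079 and 2557 against 2610.1, 2403 and 2978 (log2 change -0.15 (SE 0.40)). BARS1, at 41.2, 28.6 and 7.03 against 6.20, 12.4 and 6.53, overlapped as well (log2 change -1.26 (SE 1.05)).

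Of the 10 members, 7 were called higher and 0 lower at an adjusted p of 0.05 in the limma fit over 21180 genes, where 1.80% of all genes were called higher and 2.47% in either direction. For 8 members the wounded libraries lay wholly above the controls, as for 8.31% of all genes, and the median log2 change over the members was 2.29, beside -0.01 over all genes. The calls for THAS1, CYP708A2, CYP705A5 and CYP71A16 held when any 1 library was left out. The call for CYP705A1 ended without any 1 of the 6 libraries and that for PEN1 without Col_NT replicate 3 or Col_w replicate 2, and the count of calls fell to 4 without Col_w replicate 2. Of 34 root and shoot marker genes tested, 0 were called between the 2 groups by limma, 3 had an unadjusted p under 0.05, 1 was called by limma-voom on the recovered reads and 1 in the authors' deposited table. The summed stele markers were 6946 to 7212 in Col_w and 9292 to 14798 in Col_NT, with a median log2 change of -0.15 over the list. The summed root hair markers were 1367 to 2483 and 1095 to 1812, with a median of 0.44. The part of these markers in the result was not tested.

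Genes that act with the clusters but lie elsewhere, or at their edge, were tested in the same fit. Of 16 other cluster genes tested, 3 rose after wounding and none fell by limma with Benjamini-Hochberg adjustment. Of all genes 1.80% rose and 0.670% fell. SDR4, a short-chain dehydrogenase, went from 229 ± 43.2 to 1413 ± 316 normalized counts (SD, n = 3; log2 change 2.61, SE 0.50, adjusted p = 0.00296). AT1G66800, annotated as a Rossmann-fold protein that binds NAD(P), went from 154 ± 56.2 to 1396 ± 413 (log2 change 3.20, SE 0.58, adjusted p = 0.00163). CYP705A12, a P450 that starts at -7.522 kb from the start of CYP71A16, went from 29.97 ± 13.4 to 368 ± 9.71 (log2 change 3.66, SE 0.53, adjusted p = 0.000124). These 3 calls held without any 1 library. AT5G47950, another acyltransferase near the thalianol genes, did not pass (log2 change 1.57 with adjusted p = 0.0616).

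Listed genes at the cluster edges, CYP705A12 and AT5G47950 among them, are given above and are not counted here. Of the tested neighbours outside the lists, 0 were called after wounding by limma, beside 2.47% of all genes in either direction. They were 8 around the thalianol genes, with log2 changes from -0.37 to 0.37. Around the marneral pair there were 5 (-0.21 to 0.13), and around the arabidiol and baruol region 5 (-0.22 to 1.18). An unadjusted p under 0.05 was found for 1 of the 18, in the arabidiol and baruol region, and limma-voom and the authors' deposited table each called 1 there. The non-coding gene AT5G07035 inside the thalianol cluster reached at most 4.39 normalized counts and was not tested. The libraries did not mark the strand, so reads of overlapping antisense genes cannot be told apart from those of the members.

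**Figure D2:**
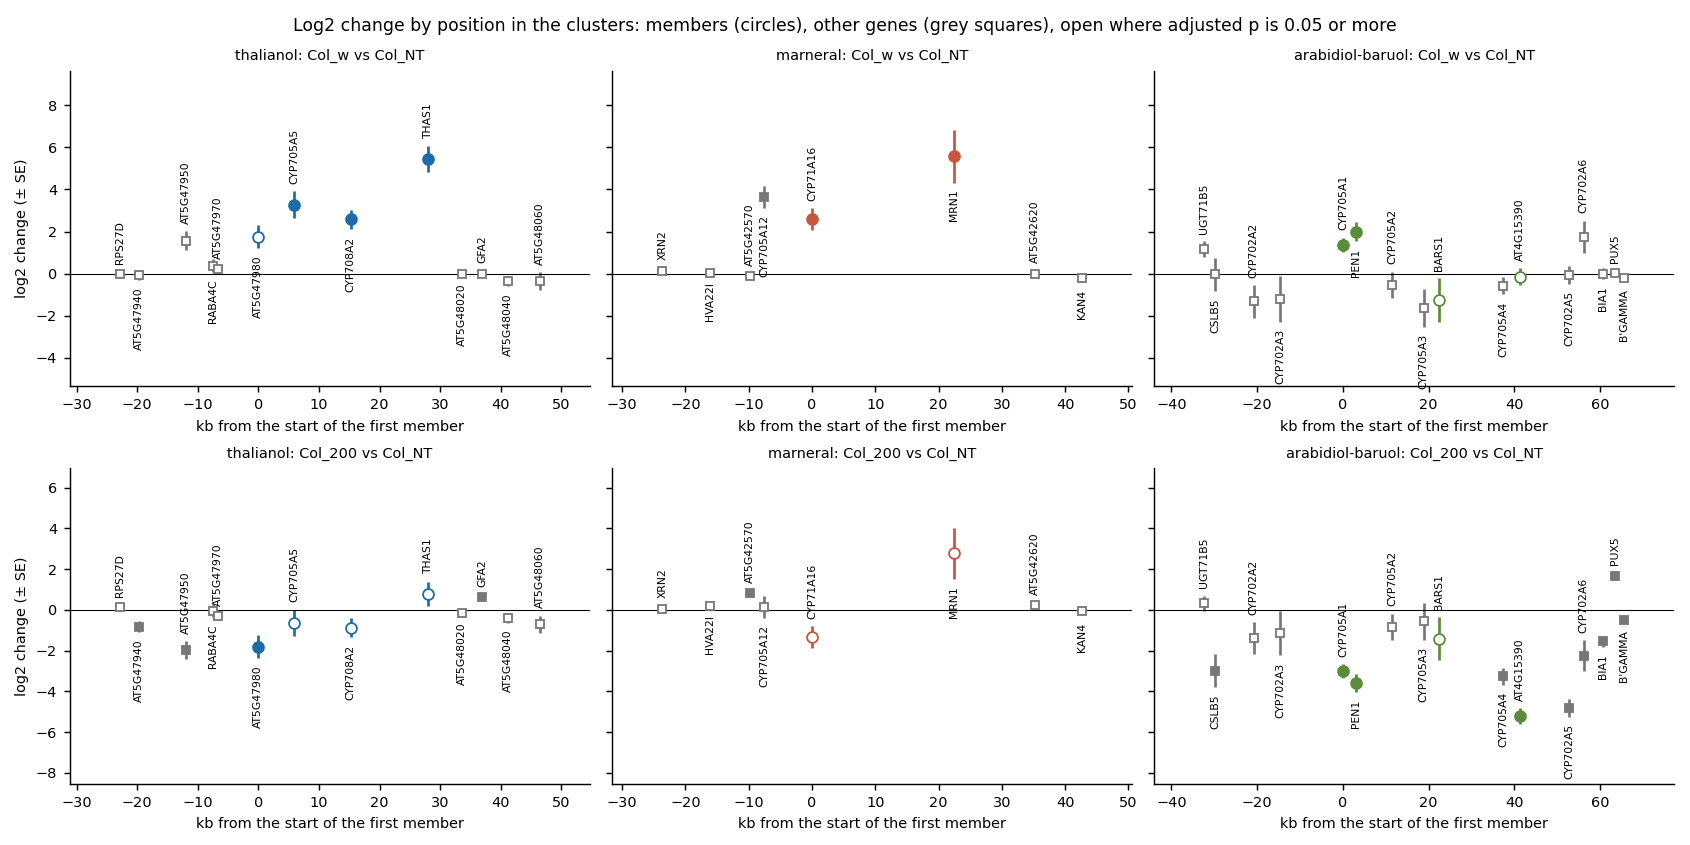
Log2 change of genes along the 3 clusters for Col_w and Col_200 against Col_NT, by distance in kb from the start of the first member; circles are members, grey squares other genes, open symbols genes not called. After wounding the thalianol genes stand above the neighbours outside the gene lists, whose log2 changes lie between -0.37 and 0.37. The grey squares include listed genes as well, among them AT5G47950, which was higher but not called.

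Transcripts of some genes of precursor synthesis were also higher after wounding, where 1.80% of all genes were called higher. Of 19 mevalonate and squalene genes tested, 3 rose after wounding and none fell (limma, Benjamini-Hochberg): SQP2, annotated as a squalene monooxygenase, went from 6.65 ± 3.83 to 127 ± 41.1 normalized counts (SD, n = 3; log2 change 4.14, SE 0.67, adjusted p = 0.000523), HMG1, an HMG-CoA reductase, changed by a log2 value of 0.83 with adjusted p = 0.00168 and MVD1, a diphosphomevalonate decarboxylase, by 0.53 with adjusted p = 0.0043. The calls for HMG1 and MVD1 were lost when only the 2 groups were fitted. Of 7 other oxidosqualene cyclases, 14 sterol synthesis genes and 11 chromatin regulators tested, 0 were called after wounding by limma, by limma-voom or in the authors' deposited table, and 0, 2 and 0 had an unadjusted p under 0.05. The highest in level were, among cyclases, CAS1, which starts sterol synthesis (log2 change 0.21), and LUP2 (log2 change -0.14), among sterol genes DWF1 and SMT1 (log2 changes 0.08 and -0.04), and among chromatin genes HTA9 and HTA11 (log2 changes -0.07 and -0.02).

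I3C had a different pattern in wild-type roots. PEN1, CYP705A1 and AT4G15390 were lower and called by limma at both doses, and AT5G47980 was so at 200 µM. The other 6 members were not called by the main limma fit at either dose, but the authors' deposited table called MRN1 higher and CYP71A16 lower at 200 µM. Limma-voom called AT5G47980 lower at 400 µM as well, and MRN1 was called higher at 400 µM when only the compared groups were fitted. AT4G15390 went from 3249.5, 3079 and 2557 normalized counts in DMSO to 63.8, 94.1 and 79.8 at 200 µM, 37.2-fold lower (log2 change -5.22 (SE 0.40)). At 400 µM its libraries held 78.3, 496 and 387 (log2 change -3.57 (SE 0.40)). This acyltransferase had the highest level of the 10 genes per kilobase in DMSO, and its treated and untreated libraries did not overlap.

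The arabidiol pair was also lower at both doses. PEN1 held 40.00, 33.2 and 13.3 normalized counts at 200 µM and 38.2, 5.57 and 7.17 at 400 µM, against the 200.2 to 414 of DMSO (log2 changes -3.58 (SE 0.46) and -4.66 (SE 0.46)). CYP705A1 held 83.2, 92.3 and 22.96 and 48.7, 30.6 and 35.9, against 436 to 499 (log2 changes -3.00 (SE 0.35) and -3.57 (SE 0.35)). For these 3 genes no library with I3C overlapped the DMSO libraries, and their calls at both doses held under every alternative run. BARS1, their neighbour, overlapped DMSO at both doses: it held 74.6, 0 and 6.04 at 200 µM, where replicate 4 had no read and 3 reads would be 0.316 CPM (counts scaled to the library's total), and 77.3, 18.1 and 22.9 at 400 µM. Its log2 change of -1.41 at 200 µM was -3.02 without replicate 1 and 0.10 without replicate 4.

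In the thalianol cluster of wild-type roots AT5G47980 alone was called under I3C by the main limma fit. With total-read scaling CYP708A2 was called lower at 200 µM as well. A difference between AT5G47980 and the other 3 genes was not tested. AT5G47980 held 71.4, 188 and 44.7 normalized counts at 200 µM and 42.95, 216 and 148 at 400 µM, all below the 248 to 362 of DMSO (log2 changes -1.81 (SE 0.56) and -1.42 (SE 0.56)). The main limma fit called it only at 200 µM, a call that ended when only the compared groups were fitted and without Col_200 replicate 5 or Col_NT replicate 4. With total-read scaling it was called lower at 400 µM too. THAS1 held 200.0, 365 and 41.1 and 143, 375 and 105, overlapping the 63.4 to 129 of DMSO at 200 µM and at 400 µM (log2 changes 0.78 (SE 0.61) and 1.08 (SE 0.61)). CYP708A2 was lower at 200 µM without overlap, at 399, 533 and 219 (log2 change -0.87 (SE 0.46)), and overlapped DMSO at 400 µM, at 286, 776 and 521. CYP705A5 overlapped at both doses, with 132, 299 and 68.9 and 69.7, 393 and 132. Without Col_200 replicate 5, the lowest library, the log2 change of THAS1 at 200 µM was 1.68 in place of 0.78, and 2 members were then called higher.

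Of the marneral pair, MRN1 was at 22.7, 133 and 2.42 normalized counts at 200 µM, overlapping DMSO, and at 13.4, 30.6 and 12.9 at 400 µM, above all DMSO libraries (log2 changes 2.79 (SE 1.25) and 2.53 (SE 1.25)). CYP71A16, the oxidase beside it, pointed the other way, at 51.9, 47.99 and 26.6 and 26.7, 87.8 and 41.6 against 60.6 to 169.7 (log2 changes -1.33 (SE 0.52) and -1.14 (SE 0.52)). Neither gene was called by the main limma fit at either dose, and with total-read scaling CYP71A16 was called lower at both.

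At 200 µM 4 of the 10 members were called lower, where 13.9% of all genes were called lower and 28.9% in either direction, and 6 lay wholly below DMSO, as did 18.6% of all genes. The authors' deposited table called 1 higher and 5 lower there, and with total-read scaling 6 were called lower. At 400 µM 3 were called lower beside 17.4% of all genes (35.8% either way), and 5 with total-read scaling, with 4 wholly below (22.6% of all genes) and 1 wholly above (21.2%). The medians over the members were -1.37 and -0.82, beside -0.03 and -0.06 over all genes. Stele markers were lower in the same libraries, with sums of 2121 to 2941 at 200 µM and 1955 to 2639.8 at 400 µM against 9292 to 14798 in DMSO, and 3 of 4 and 2 of 4 fell (PHO1, a phosphate exporter of the stele, -2.90 with adjusted p = 3.06e-10 and -3.34 with adjusted p = 1.98e-11 on the log2 scale). The median log2 changes over the 4 stele markers were -0.69 and -0.61, smaller than those of PHO1, and a sum is weighted to its most abundant genes. Of the 8 root hair and epidermis markers, 2 fell at 200 µM and 3 at 400 µM. The part of these cell types in the members' change was not tested. Between the doses 0 members were called by limma (0.123% of all genes in either direction) or by limma-voom, 1 in the authors' deposited table, and 2 had an unadjusted p under 0.05. No member's dose groups were apart. PEN1 was at a log2 difference of -1.08 (SE 0.46) and AT4G15390 of 1.65 (SE 0.40) for 400 against 200 µM.

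Both overexpressing lines showed the fall of the arabidiol genes. In ICT1-2, PEN1 went from 799 and 617 normalized counts in DMSO to 214, 199.6 and 194 at 200 µM and 83.6, 95.4 and 118 at 400 µM (log2 changes -1.79 (SE 0.51) and -2.83 (SE 0.51)). In ICT1-8098 it went from 705, 817 and 734 to 241, 161 and 126 at 200 µM (log2 change -2.14 (SE 0.46)). The treated libraries of both lines lay below their controls, and above every wild-type library given I3C. CYP705A1 went from 330.0 and 263 to 87.7, 117 and 69.7 and 55.8, 48.2 and 37.4 in ICT1-2 (log2 changes -1.71 (SE 0.39) and -2.64 (SE 0.39)) and from 368, 279 and 296 to 102, 75.7 and 50.7 in ICT1-8098 (log2 change -2.08 (SE 0.35)).

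AT4G15390 fell in both lines as well, by a smaller log2 change in ICT1-2 than in the wild type. It went from 4299.8 and 3174 normalized counts to 685, 773 and 581 at 200 µM and 1432, 1446 and 861 at 400 µM (log2 changes -2.45 (SE 0.45) and -1.61 (SE 0.45)). In ICT1-8098 it went from 8641, 6150.5 and 5269.5 to 504, 607 and 722 (log2 change -3.43 (SE 0.40)). The difference between the 200 µM response of ICT1-2 and that of the wild type was 2.77 (SE 0.60) on the log2 scale, 1 of 10 members called in that interaction beside 0.680% of all genes (0.335% in that direction). Limma-voom called 0 members in it, and the call also ended with the replicate block and in 8 of 11 fits that left out 1 library. By limma 3 had an unadjusted p under 0.05. For ICT1-8098 the difference was 1.78 (SE 0.57) and 0 members were called by limma or limma-voom, beside 0.264% of all genes, with 5 at an unadjusted p under 0.05. For ICT1-2 at 400 µM 0 were called by limma, beside 2.22% of all genes, 1 by limma-voom, and 2 had an unadjusted p under 0.05. In ICT1-2, 400 µM left AT4G15390 above 200 µM without overlap (log2 difference 0.84 (SE 0.40)), and CYP705A1 and PEN1 below it without overlap (-0.93 (SE 0.35) and -1.04 (SE 0.46)); 0 of the 10 were called by limma, beside 8.03% of all genes, 1 by limma-voom and 2 in the authors' deposited table, and 3 had an unadjusted p under 0.05. Of all genes 18.7% lay wholly above and 14.1% wholly below.

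In ICT1-8098 CYP708A2, CYP705A5, AT5G47980 and CYP71A16 were lower with I3C as well and called by limma. THAS1 was not called by limma, though limma-voom and the authors' deposited table called it lower. There THAS1 went from 1175, 389 and 509 normalized counts to 111, 251 and 282 (log2 change -1.63 (SE 0.61)) and CYP708A2 from 2063, 880.5 and 1147 to 184, 385 and 531 (log2 change -1.93 (SE 0.46)). CYP705A5 went from 1089, 279 and 389 to 29.3, 155 and 169.9 (log2 change -2.40 (SE 0.64)), a call lost when only the compared groups were fitted and without replicate 2 of the treated or replicate 1 of the control libraries. All 3 sets of treated libraries lay below their controls. AT5G47980 went from 158, 76.5 and 106 to 6.70, 21.3 and 31.9 (log2 change -2.63 (SE 0.56)) and CYP71A16 from 643, 135 and 235 to 33.5, 74.04 and 93.2 (log2 change -2.13 (SE 0.52)). MRN1 overlapped, at 368, 24.9 and 49.8 against 4.19, 47.7 and 107. BARS1 alone lay above its controls, at 54.5, 26.4 and 29.5 against 3.33, 12.04 and 15.04 (log2 change 1.89 (SE 1.05)).

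In ICT1-2 the same genes moved less clearly against a control group of only 2 libraries. THAS1 went from 691 and 438 normalized counts to 399.7, 490.1 and 161 and 217, 411 and 355 (log2 changes -0.80 (SE 0.68) and -0.80 (SE 0.68)). CYP708A2 went from 1171 and 829 to 851, 675 and 252 and 281, 681 and 518, and CYP705A5 from 404 and 305 to 273, 357 and 109 and 158, 254 and 239.6. These 3 overlapped their controls at 200 µM and lay below them at 400 µM. AT5G47980 went from 56.8 and 69.9 to 20.9, 40.8 and 17.6 and 15.6, 35.4 and 13.5, the lowest levels of this gene outside ICT1-8098_200. CYP71A16 went from 288 and 227 to 71.8, 131 and 45.6 and 43.5, 51.8 and 26.9 (log2 changes -1.75 (SE 0.58) and -2.67 (SE 0.58)). MRN1 overlapped at both doses, with 18.2 and 4.86 in DMSO, 31.9, 103 and 13.6 at 200 µM and 2.46, 42.7 and 26.9 at 400 µM. BARS1 went from 78.2 and 179.7 to 6.98, 28.9 and 73.7 and 32.8, 54.5 and 95.8, below its controls at 200 µM and overlapping them at 400 µM.

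In ICT1-2, 4 members were called lower at 200 µM (CYP705A1, AT4G15390, PEN1 and CYP71A16), beside 6.76% of all genes (18.6% either way), and 6 lay wholly below, beside 27.2%. At 400 µM the same 4 were called lower, beside 13.7% (31.4% either way), and 8 lay wholly below, beside 31.4%. In ICT1-8098, 7 were called lower, beside 7.97% (22.1% either way), 8 lay wholly below, beside 19.5%, and 1 wholly above, beside 20.0%. The medians over the members were -1.51, -1.35 and -2.11, beside -0.03, -0.07 and -0.04 over all genes. At 200 µM in ICT1-2 the count of calls fell to 1 without ICT1-2_NT replicate 1 and to 2 without ICT1-2_NT replicate 2, and it was 2 with the replicate block, which kept CYP705A1 and AT4G15390.

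Markers of other cells moved in the same 3 comparisons. Shoot photosynthesis markers in ICT1-2 had sums of 2467 to 2584 in DMSO, 654 to 798 at 200 µM and 897 to 1253 at 400 µM, with 9 and 6 of 11 called lower. In ICT1-8098 their sums were 1036 to 1321 in DMSO and 661 to 682 at 200 µM, with 1 of 11 lower. Summed stele markers were 7036 to 8333, 3447 to 4303 and 2788 to 3469.6 in the same ICT1-2 groups, with 1 of 4 lower at each dose, and 9260.0 to 10632 and 4014 to 4311 in ICT1-8098, with 2 of 4 lower. The median log2 changes over the 4 stele markers were -0.39, -0.39 and -0.41 in the 3 comparisons. Root hair and epidermis markers had 1, 2 and 0 of 8 lower, and meristem and cap markers 2, 2 and 0 of 6. The part of these cell types in the members' change was not tested.

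**Figure D3:**
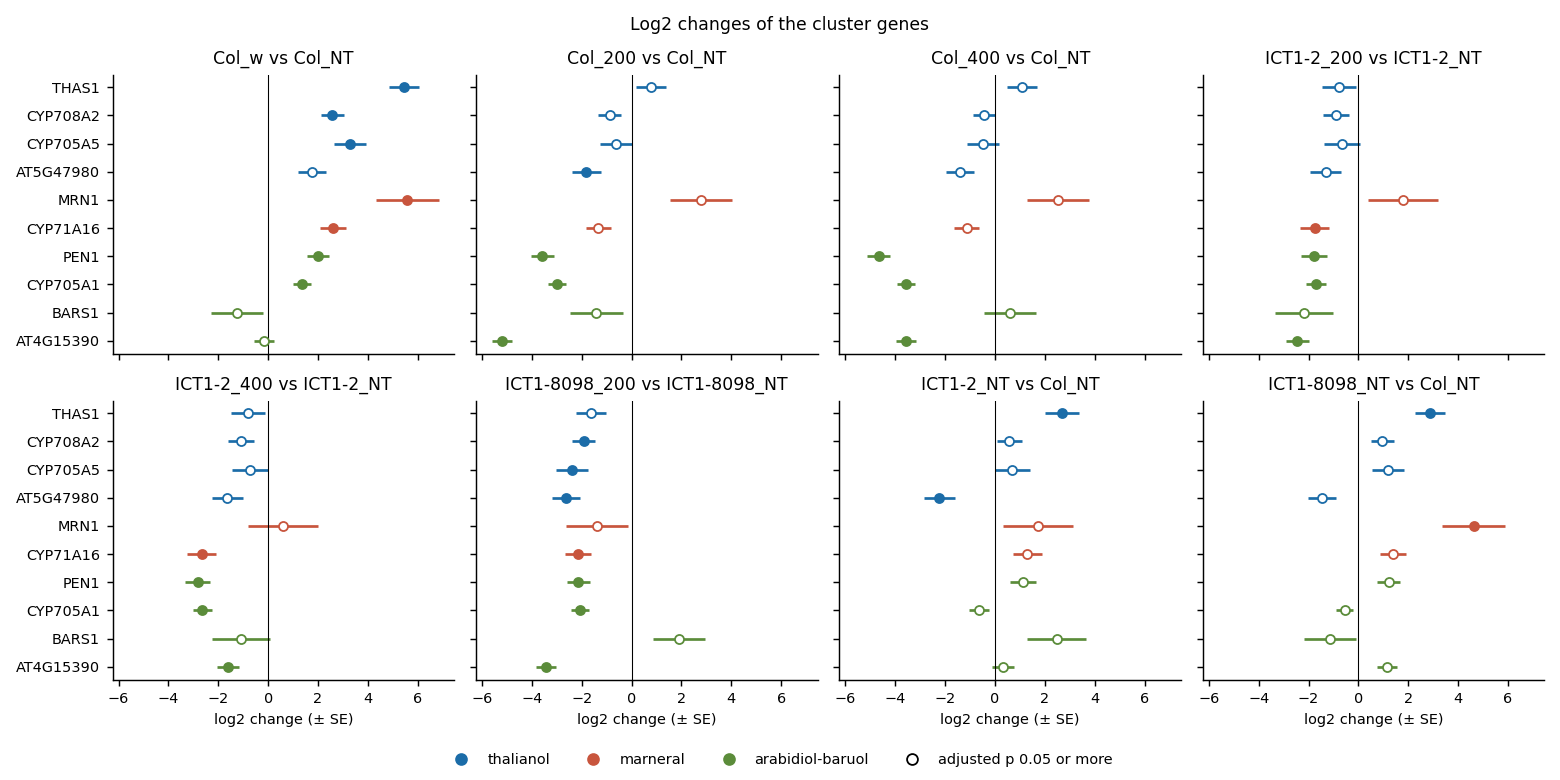
Log2 change with its standard error for the 10 members in 8 comparisons; filled symbols passed an adjusted p of 0.05 in the limma fit over all genes. PEN1, CYP705A1 and AT4G15390 lie below 0 and are filled in all 5 I3C comparisons, and THAS1 is filled above 0 in Col_w and in both lines without I3C.

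Without I3C, both lines differed from the wild type in the thalianol cluster, in a direction that depended on the gene. THAS1 was at 691 and 438 normalized counts in ICT1-2_NT and 1175, 389 and 509 in ICT1-8098_NT, against 63.4 to 129 in Col_NT (log2 changes 2.70 (SE 0.68) and 2.86 (SE 0.61)). AT5G47980 was at 56.8 and 69.9 and 158, 76.5 and 106, against 248 to 362 (log2 changes -2.23 (SE 0.63) and -1.45 (SE 0.56)). The cyclase was thus higher and the acyltransferase lower in every DMSO library of the lines than in every Col_NT library. CYP708A2 and CYP705A5 lay above Col_NT in both lines without a call by limma, limma-voom or the authors' deposited table, with log2 changes of 0.58 (SE 0.51) and 0.70 (SE 0.71) in ICT1-2 and 0.95 (SE 0.46) and 1.18 (SE 0.64) in ICT1-8098.

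The arabidiol and baruol region held both directions as well, while both marneral genes pointed up. MRN1 was at 18.2 and 4.86 normalized counts in ICT1-2_NT and 368, 24.9 and 49.8 in ICT1-8098_NT, above the 0.770 to 4.12 of Col_NT (log2 changes 1.73 (SE 1.40) and 4.62 (SE 1.25)), and the second was called by limma and in the authors' deposited table but not by limma-voom. PEN1 lay above Col_NT in both lines (1.11 (SE 0.51) and 1.21 (SE 0.46)), while CYP705A1 lay below it in both (-0.64 (SE 0.39) and -0.55 (SE 0.35)), none of them called by limma. Limma-voom called PEN1 higher and CYP705A1 lower in both lines, and the authors' deposited table called PEN1 higher in both and CYP705A1 in neither. AT4G15390 lay above Col_NT in ICT1-8098_NT (1.15 (SE 0.40)) and overlapped it in ICT1-2_NT (0.33 (SE 0.45)). BARS1 lay above it in ICT1-2_NT (2.47 (SE 1.17)) and overlapped in ICT1-8098_NT (-1.16 (SE 1.05)). CYP71A16 had log2 changes of 1.30 (SE 0.58) and 1.40 (SE 0.52), above Col_NT without overlap in ICT1-2 only.

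In ICT1-2_NT, 1 member was called higher (THAS1) and 1 lower (AT5G47980), beside 9.50% and 8.66% of all genes (18.2% either way), and 7 lay wholly above and 2 wholly below, beside 24.7% and 25.1%. In ICT1-8098_NT, 2 were called higher (THAS1 and MRN1), beside 6.01%, and 6 lay wholly above and 2 wholly below, beside 16.4% and 18.4%. These counts depended on the tool: in ICT1-2_NT limma-voom called 3 higher and 2 lower and the authors' deposited table had 2 higher and 1 lower, and in ICT1-8098_NT limma-voom and limma on the compared groups alone each called 4 higher and 2 lower and the authors' deposited table had 5 higher and 0 lower. With the replicate block AT5G47980 was not called in ICT1-2_NT. The limma calls in ICT1-2_NT rested on its 2 libraries: without replicate 1 neither gene was called, without replicate 2 only THAS1 was, and without Col_NT replicate 4 only THAS1 was. In ICT1-8098_NT 1 call remained without Col_NT replicate 4 or without ICT1-8098_NT replicate 1, the library with the highest THAS1 and MRN1 of its group. Comparisons with Col_NT share its 3 libraries. Shoot photosynthesis markers were at sums of 1036 to 1321 in ICT1-8098_NT against 1748 to 4309.9 in Col_NT, with 6 of 11 lower. In ICT1-2_NT meristem and cap markers summed to 1048 to 1164 against 668 to 696, with 1 of 6 higher, and 1 of 5 endodermis and cortex markers was higher, 1 of 5 lower and 1 of 4 stele markers lower. The part of these markers was not tested.

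The split within clusters can be read from ratios inside each library, which do not depend on the scaling of libraries. The ratio of CYP708A2 to AT5G47980, both per kilobase of exon, was 1.28 to 4.91 in the 12 Col-0 libraries (median 2.62) and 7.95 to 29.9 in the 14 line libraries (median 12.8). Within DMSO it was 1.28 to 2.25 in Col_NT, 8.73 to 15.2 in ICT1-2_NT and 7.95 to 9.59 in ICT1-8098_NT. At 200 µM I3C it was 2.08 to 4.11 in Col_200, 10.5 to 29.9 in ICT1-2_200 and 12.3 to 20.2 in ICT1-8098_200. No wounded libraries of the lines were in the table. For THAS1 over AT5G47980 the ranges were 0.122 to 2.42 and 2.94 to 16.2, and for CYP705A5 over AT5G47980 they were 0.495 to 2.48 and 3.12 to 15.2. These 3 ratios share AT5G47980 as denominator and are not separate observations. PEN1 over CYP705A1, in another cluster, was 0.131 to 0.859 in Col-0 (median 0.493) and 1.09 to 2.29 in the lines (median 1.73). By contrast CYP708A2 over CYP705A5 overlapped, at 1.41 to 3.54 and 1.53 to 5.40.

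These 4 ratios, of 13 pairs within clusters, were noticed after the values were seen and carry no test. Among 21173 pairs of neighbouring tested genes, 4.49% separated Col-0 from line libraries in the same way. No single member separated them by its own level, as 3.86% of all genes did. The labels do not say how reads matching several similar genes were counted, so a difference between close copies within the CYP705A and acyltransferase families is uncertain.

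**Figure D4:**
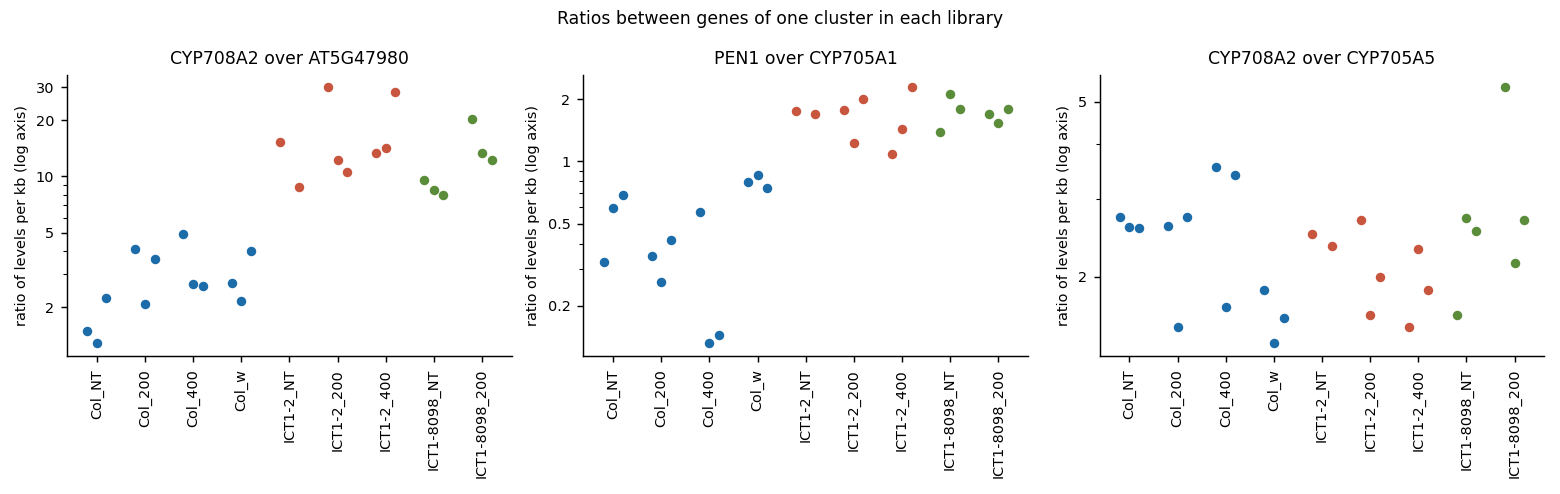
Ratios of member levels per kilobase of exon in each library, by group, on a log axis; each dot is a library. CYP708A2 over AT5G47980 and PEN1 over CYP705A1 separate all 12 Col-0 from all 14 line libraries, and CYP708A2 over CYP705A5 does not.

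The 4 thalianol genes shared the highest or the lowest library in several groups, and the 4 chromosome 4 genes as a set did so in none. In 5 of 9 groups the same library had the highest level of all 4 thalianol genes, and in 4 of 9 the same library had the lowest. Replicate 4 of Col_200 was the highest and replicate 5 the lowest for THAS1 (200.0, 365 and 41.1 in replicates 1, 4 and 5), CYP708A2, CYP705A5 and AT5G47980. Replicate 1 of ICT1-8098_NT was the highest of its group for all 4, and also for MRN1 and CYP71A16. Both marneral genes shared their highest library in 7 of 9 groups and their lowest in 5 of 9. For the 4 arabidiol and baruol genes this was so in 0 of 9 groups, for the highest and for the lowest. A pair shares a library more easily than 4 genes do, so the marneral counts cannot be compared with those of the other clusters. How often unrelated genes share their highest or lowest library was not computed.

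As a description over 26 libraries, with each value taken relative to its group mean on the log2 scale, the 6 pairs of thalianol genes correlated with a median r of 0.839 (0.677 to 0.909). The marneral pair gave 0.647. The 6 pairs of the arabidiol and baruol region gave a median of -0.0818, from -0.788 for PEN1 with AT4G15390 to 0.610 for PEN1 with CYP705A1. The 32 pairs between clusters gave 0.245 (-0.528 to 0.826). Among these, MRN1 had 0.826 with CYP705A5, 0.795 with THAS1, 0.792 with CYP708A2 and 0.677 with AT5G47980. High values were thus not limited to pairs within a cluster. The libraries share depth, scaling and tissue, so these values describe the libraries and not the genes alone.

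Genes outside the members with the most similar pattern were sought among 16857 genes with a mean of at least 50 normalized counts, by Pearson's r with the cluster's mean centred log2 value over the 26 libraries. For the thalianol genes they were NSP1, a nitrile specifier protein that acts on glucosinolate breakdown (0.923), TIC32, a component of the chloroplast inner envelope (0.916), the annexin ANN3 (0.915), PBP1, a jacalin lectin that binds the PYK10 glucosidase (0.913), and AT1G66800 (0.907). Mean NSP1 was 5920.4 normalized counts in Col_NT and 15942 in Col_w, so the likeness includes the wounded group. For the marneral pair they were CYP705A12 (0.847), the annexin ANN4 (0.838), AT1G66800 (0.782), AT3G02620, annotated as a stearoyl-ACP desaturase family member (0.778), and SDR4 (0.774). For the arabidiol and baruol region they were AT1G15380, a glyoxalase I family gene (0.971), AT1G54730, a major facilitator family gene (0.950), AT1G78260, an RNA-binding protein gene (0.946), and the uncharacterized AT2G22122 (0.944) and AT1G77885 (0.942). The region's mean did not follow all of its members: BARS1 had an r of 0.205 with it, and CYP705A1, AT4G15390 and PEN1 had 0.823, 0.882 and 0.928. AT1G15380 stood at 2759 normalized counts in Col_NT and 253 in Col_200, the direction of AT4G15390 in the same groups.

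Other triterpene genes, some within these clusters and some in related groups elsewhere, also fell with I3C. Of the same 16 other cluster genes, none rose and 5 fell at 200 µM in the wild type, 1 rose and 7 fell at 400 µM, 4 and 6 fell in ICT1-2 at 200 and 400 µM, and 7 fell in ICT1-8098, with none higher in the lines (limma, Benjamini-Hochberg). Of all genes 13.9%, 17.4%, 6.76%, 13.7% and 7.97% fell in these comparisons and 15.0%, 18.4%, 11.8%, 17.6% and 14.2% rose. CYP702A5, a P450 of the arabidiol and baruol region, went from 310.0 ± 10.9 normalized counts (SD, n = 3) in Col_NT to 10.3 ± 2.87 in Col_200 (log2 change -4.81, SE 0.43, adjusted p = 7.14e-09). It fell in every I3C comparison, by log2 values from -2.63 to -4.81, and each call held without any 1 library. CYP705A4 fell in all 5 as well, from -3.27 with adjusted p = 1.05e-06 in Col_200 to -1.61 with adjusted p = 0.0135 in ICT1-2_200, where the call was lost without either ICT1-2_NT library. AT5G47950 fell in all 5, most in ICT1-8098 at -2.77 with adjusted p = 4.21e-05 and least in Col_400 at -1.24 with adjusted p = 0.0312, a call lost without any of 4 libraries (Col_400 replicate 1 and Col_NT replicates 3, 4 and 5). SCPL1, a serine carboxypeptidase-like protein encoded near PEN3, fell in Col_200 (log2 change -3.12, SE 0.67, adjusted p = 0.00091), in Col_400 (-2.43 with adjusted p = 0.00638), in ICT1-2_400 (-2.46 with adjusted p = 0.0143, lost without either ICT1-2_NT library or ICT1-2_400 replicate 3) and in ICT1-8098_200 (-2.19 with adjusted p = 0.0188, lost without ICT1-8098_NT replicate 1 or ICT1-8098_200 replicate 4). CYP702A6 fell in 4 of the 5, most in ICT1-2_400 (log2 change -3.74, SE 0.85, adjusted p = 0.00167), and its Col_200 call (log2 change -2.25) was lost without any of 5 libraries, Col_200 replicates 1 and 5 and each Col_NT library. PEN3, another cyclase, was the only one of the 16 to rise with I3C, in Col_400 (log2 change 3.05, SE 1.03, adjusted p = 0.0235), a call lost without Col_400 replicate 4 or Col_NT replicate 3.

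SDR4 and AT1G66800, which rose after wounding, fell with I3C in ICT1-8098 by log2 values of -2.10 with adjusted p = 0.00294 and -2.64 with adjusted p = 0.0013. Without I3C, SDR4 was higher than Col_NT in ICT1-2 (1.85 with adjusted p = 0.0229, lost without Col_NT replicate 5 or either ICT1-2_NT library) and in ICT1-8098 (1.75 with adjusted p = 0.0213, lost without Col_NT replicate 5 or ICT1-8098_NT replicate 1 or 5). CYP702A5 was higher in ICT1-8098_NT, at 1308 ± 465 normalized counts (SD, n = 3; log2 change 2.02, SE 0.43, adjusted p = 0.00233). CYP705A3 was lower there (-3.42 with adjusted p = 0.0125), a call lost without Col_NT replicate 4 or ICT1-8098_NT replicate 1.

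Of the 7 other oxidosqualene cyclases tested, BAS fell in 4 of the 5 I3C comparisons, with log2 values of -1.36 with adjusted p = 0.0012 in Col_200, -1.56 with adjusted p = 0.00023 in Col_400, -0.98 with adjusted p = 0.0291 in ICT1-2_400 and -1.19 with adjusted p = 0.00467 in ICT1-8098_200. CAS1 fell by less in the wild type, with log2 values of -0.35 with adjusted p = 0.019 and -0.68 with adjusted p = 4.04e-05 in Col_200 and Col_400, and the first call was lost without any of 4 libraries, Col_200 replicates 1 and 4 and Col_NT replicates 4 and 5. LUP5 and LAS1 fell in ICT1-2_400 (-2.70 and -2.73), calls lost without ICT1-2_NT replicate 2 among others. LUP5 also fell in Col_400 (-1.84 with adjusted p = 0.04), a call that held in 1 of 6 fits without a library. In the list 2, 3, 0, 3 and 1 of 7 fell in Col_200, Col_400, ICT1-2_200, ICT1-2_400 and ICT1-8098_200, beside the shares of all genes just given, and none rose. In the precursor pathway both directions were seen: of 19 mevalonate and squalene genes, 2 rose and 0 fell in Col_200, 4 rose and 3 fell in Col_400, 2 rose and 0 fell in ICT1-2_200, 5 rose and 1 fell in ICT1-2_400, and 1 rose and 1 fell in ICT1-8098_200. Of all genes 15.0%, 18.4%, 11.8%, 17.6% and 14.2% rose and 13.9%, 17.4%, 6.76%, 13.7% and 7.97% fell in these comparisons. SQE3, a squalene epoxidase that makes the precursor shared by all cyclases, rose in 4 of the 5, with log2 values of 1.44 with adjusted p = 5.28e-05, 1.69 with adjusted p = 5.44e-06, 1.03 with adjusted p = 0.00754 and 1.98 with adjusted p = 3.62e-06 in that order of groups. The ICT1-2_200 call was lost without ICT1-2_200 replicate 5 or ICT1-2_NT replicate 1.

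**Figure D5:**
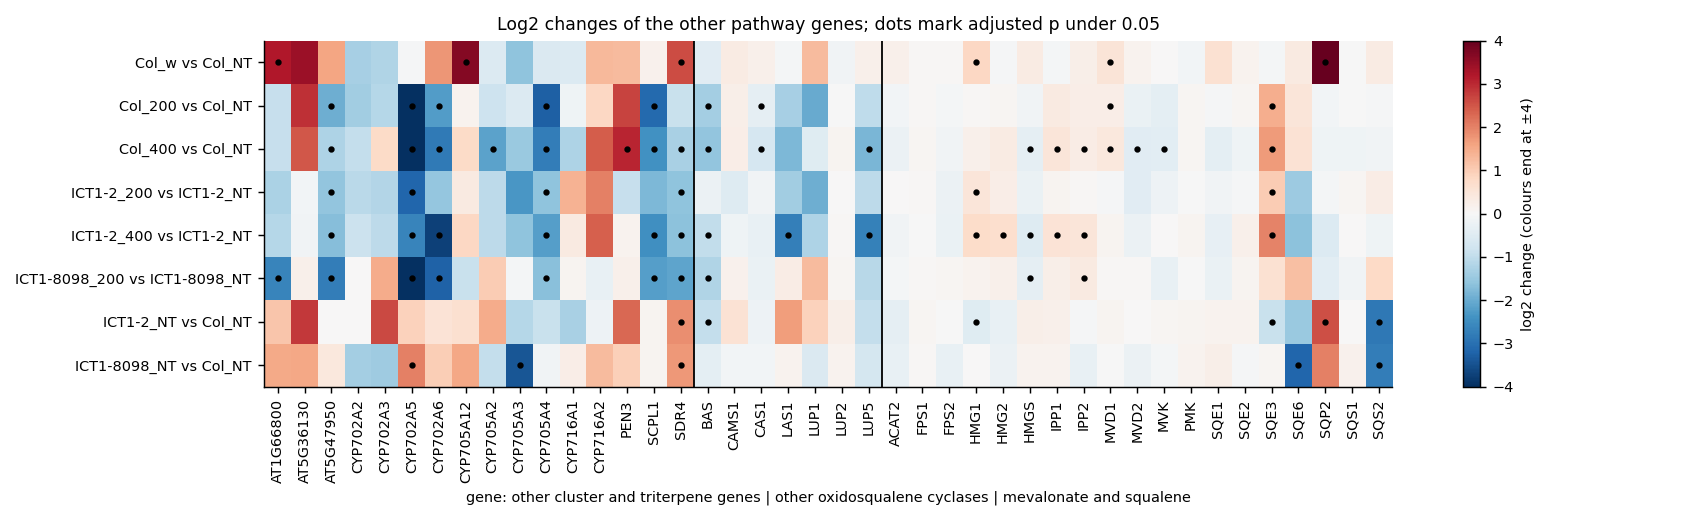
Log2 changes of other cluster genes, other oxidosqualene cyclases and mevalonate and squalene genes in 8 comparisons, as colours; dots mark an adjusted p under 0.05. CYP702A5, CYP705A4 and AT5G47950 are dotted as lower in all 5 I3C comparisons, and SQE3 as higher in 4.

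In sterol synthesis, 1, 4, 0, 3 and 2 of 14 genes fell with I3C in the same order of groups and none rose, counts to be read against the 13.9%, 17.4%, 6.76%, 13.7% and 7.97% of all genes that fell, led by STE1, a sterol desaturase, at -0.71 with adjusted p = 0.000183 on the log2 scale in Col_400. In ICT1-2_NT 6 of 14 were lower than in Col_NT, beside 8.66% of all genes, with SMO1-2, a sterol methyl oxidase, at -1.05 with adjusted p = 0.00223 and STE1 at -0.87 with adjusted p = 0.000194; in ICT1-8098_NT 0 of 14 were called by limma, 1 by limma-voom and 3 in the authors' deposited table, and 5 had an unadjusted p under 0.05. Of the 11 chromatin regulators, some of which are known to control cluster genes, limma called 1 in each line without I3C. Of all genes 9.50% in ICT1-2_NT and 6.01% in ICT1-8098_NT were called higher. The gene was SWC6, a subunit of the complex that deposits the histone variant H2A.Z. It was higher at 1.15 with adjusted p = 5.26e-06 in ICT1-2_NT and 0.81 with adjusted p = 0.000122 in ICT1-8098_NT. HTA9, an H2A.Z gene, had log2 changes of 0.29 with adjusted p = 0.0476 in Col_200, 0.33 with adjusted p = 0.0183 in Col_400 and 0.51 with adjusted p = 0.00226 in ICT1-2_400. It was the 1 of 11 called by limma in each, beside 15.0%, 18.4% and 17.6% of all genes called higher. The HTA9 calls ended when libraries were scaled by total reads. In ICT1-2_NT and ICT1-8098_NT respectively, 1 and 0 of the 19 mevalonate and squalene genes were higher and 3 and 2 lower, among them SQP2 (higher) at 2.59 in ICT1-2_NT, SQS2 at -2.84 with adjusted p = 0.0262 and -2.77 with adjusted p = 0.0206 and SQE6 at -3.18 with adjusted p = 0.00657 in ICT1-8098_NT. Of all genes 9.50% and 6.01% were higher and 8.66% and 6.17% lower in ICT1-2_NT and ICT1-8098_NT. The SQS2 and SQP2 calls in ICT1-2_NT were lost without its replicate 1.

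Some genes beyond the cluster edges were called with I3C, in both directions. Of 18 tested neighbours outside the lists, limma called 7, 7, 5, 7 and 6 in Col_200, Col_400, ICT1-2_200, ICT1-2_400 and ICT1-8098_200. Of all genes 28.9%, 35.8%, 18.6%, 31.4% and 22.1% were called there in either direction. Around the thalianol genes 2 of 8 and around the marneral pair 1 of 5 were called at each dose in the wild type. Of 5 tested neighbours of the arabidiol and baruol region, 3 fell and 1 rose at each dose in the wild type. On that side, CSLB5, a cellulose synthase-like gene that starts at -29.838 kb from the start of CYP705A1, fell in all 5 I3C comparisons by log2 values of -2.48 with adjusted p = 0.0261 to -4.61 with adjusted p = 7.11e-05, and PUX5, on the other side, rose in all 5 by 1.01 with adjusted p = 3.95e-05 to 2.15 with adjusted p = 2.25e-09. Beside the marneral pair AT5G42570 rose in all 5, by 0.67 with adjusted p = 0.00105 to 1.17 with adjusted p = 8.75e-08. Beside the thalianol genes GFA2 rose in all 5, by 0.41 with adjusted p = 0.048 to 0.97 with adjusted p = 7.83e-05, and AT5G47940 fell in 4 of 5. Without I3C limma called 3 of 18 neighbours in ICT1-2_NT and 2 of 18 in ICT1-8098_NT, beside 18.2% and 12.2% of all genes. AT5G47940 was higher in both lines, at 1.13 with adjusted p = 0.00771 and 1.16 with adjusted p = 0.00329. That was the direction of THAS1 in the same libraries and the opposite of AT5G47980 (log2 changes -2.23 and -1.45). UGT71B5, a glycosyltransferase beyond CSLB5, was lower in both, at -1.95 with adjusted p = 0.00189 and -2.67 with adjusted p = 1.48e-05.

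The order of groups by level differed between clusters. For THAS1 the wounded group was apart from all others, and every further step in the order overlapped, from a mean of 691 normalized counts in ICT1-8098_NT to 88.1 in Col_NT. For AT4G15390 the order began with ICT1-8098_NT at 6687 ± 1749 (SD, n = 3), apart from ICT1-2_NT, Col_NT and Col_w, which overlapped in turn and were apart from all I3C groups, and ended with Col_400 and Col_200, which overlapped. For PEN1 the wounded group led, then both lines in DMSO, then Col_NT, which overlapped ICT1-2_200, and last Col_200 and Col_400. For BARS1 every neighbouring pair of groups overlapped, so no order could be read.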

How the data were processed

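Messenger RNA of roots was sequenced from libraries made with a kit that does not mark strand. The submitters' processing notes name TAIR10, DESeq2 1.18.1, HTSeq 0.6.1 and TopHat2 2.1.0, without their roles. The authors deposited 1 table whose cells hold the normalized counts of a group's libraries, per the file headers. Log-scale limma was therefore the main test, limma-voom on recovered reads the count-based alternative, and the planned edgeR and DESeq2 fits were not run. Every value was a whole number of reads, within 0.1 reads, times 1 factor per library, which gave the depths (median 14169035.5 reads) and a floor of 3 reads at 0.154 to 0.316 CPM, covering counting error only. The authors' deposited log2 fold changes served only as an alternative. The table holds 26 of the 27 libraries in the labels, and 0 of its columns of per-sample values were left unused; ICT1-2_NT replicate 5 was not analysed here.

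Log2(normalized count + 1) values of the 21180 genes that reached 10 normalized counts in 3 or more libraries were fitted with limma 3.58.1 (trend, empirical Bayes, R 4.3.3) over all 26 libraries with 1 mean per group. Tests were two-sided, with Benjamini-Hochberg adjustment over all genes and a threshold of 0.05. Plots used matplotlib 3.10.9 and tables pandas 2.3.3 with numpy 2.4.6 under Python 3.11.15, and the fit was tested on simulated data. The members and lists were chosen with earlier results of these data known. The genes named were all members, called genes among the 4 largest changes per list and comparison (with none called, the 2 highest in level), the 5 genes most like each cluster, and the 5 table neighbours on each side. Some genes of these sets are given only by counts, and a few beyond the 4 largest (AT5G47950, SDR4, CAS1 and marker genes) were named after their values were seen. Of 104 other listed genes 101 were tested. Alternatives covered the filter, pseudocount, scaling, libraries fitted, replicate block, voom and leaving out each library.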

Additional observations from a re-analysis of the deposited data

Results flagged for a closer look

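The members were chosen with their values known and were not screened here. Among the listed genes, 5 values of marker genes stood out because the response to I3C in ICT1-2 differed from that of the wild type by the limma interaction test (Benjamini-Hochberg adjusted over all genes). At 200 µM the differences on the log2 scale were -2.13 for LHCA1, -3.11 for CAB1 and -4.27 for LHCB2.1, all light-harvesting proteins of the shoot, and 1.49 for the stele gene PHO1. Leaving out 1 library ended the LHCA1 and LHCB2.1 calls in 9 of 11 fits, the CAB1 call in 8 of 11 and the PHO1 call in 6 of 11. At 400 µM the difference for PHO1 was 1.57, a call lost without ICT1-2_NT replicate 2. The light-harvesting genes include near-identical copies, so counts of single copies are uncertain.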

How the results depend on the processing

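No called member changed sign under any alternative. Under settings that kept all libraries 1163 of 1170 member values stayed within 1 SD of the reported one, the other 7 having moved under the replicate block. With 1 library left out, 888 of 910 member values and 86 of 91 medians did, and uncalled values could change sign, as BARS1 in Col_200 and the medians between doses did. Counts of listed genes called (reported: 16, 30, 19, 30 and 15 for I3C in Col_200, Col_400, ICT1-2_200, ICT1-2_400 and ICT1-8098_200, 6 for Col_w, 17 and 12 for ICT1-2_NT and ICT1-8098_NT, 5 for ICT1-2_400 against ICT1-2_200, and 4 and 1 for the ICT1-2 interactions at 200 and 400 µM) moved by over 1.5 times as follows. With no filter or a pseudocount of 0.5 the 200 µM interaction gave 2, and with at least 5 CPM ICT1-8098_NT gave 7. With total-read scaling, which shifted the median of all genes by -0.432 to 0.131 (log2), Col_200 gave 44, Col_400 47, ICT1-2_400 59, ICT1-8098_200 29, ICT1-2_NT 10 and both ICT1-2 interactions 2. With only the compared groups fitted, Col_200 gave 8, Col_400 19, ICT1-8098_NT 22, and the interactions 0 and 5. Limma-voom, added after seeing the data, gave 10 for Col_w and 0 for the 200 µM interaction, and the calls in the authors' deposited table came to 11 for Col_w and 20 for ICT1-8098_NT. The cause of these differences was not tested. Over all tested genes, libraries with the same replicate number were no more alike by the median (r 0.000846 for 62 same-number pairs, 0.0051 for 238 others). An r above 0.1 was found for 13 of the 62 and 31 of the 238. For 3 or 4 of the 4 thalianol genes, replicate 4 was the highest library in every I3C group. Whether replicate numbers paired the members' values was not tested. With the replicate block ICT1-2_200 gave 11, ICT1-2_400 13, ICT1-2_NT 11, ICT1-2_400 against ICT1-2_200 1 and the 200 µM interaction 2. Leaving out 1 library gave ranges, in the order above, of 9 to 27, 17 to 31, 9 to 16, 14 to 27, 11 to 15, 6 to 8, 7 to 14, 7 to 11, 0 to 4, 0 to 9 and 0 to 2, with 0 to 1 for Col_400 against Col_200 (reported 0) and 0 to 2 for the ICT1-8098 interaction (reported 0). Member medians ran over left-out libraries from -1.83 to -0.96 in Col_200, -1.38 to -0.40 in Col_400, -1.72 to -1.24 in ICT1-2_200, -1.55 to -1.10 in ICT1-2_400, -2.28 to -1.65 in ICT1-8098_200, 2.14 to 2.36 in Col_w, 0.68 to 1.10 in ICT1-2_NT, 0.69 to 1.27 in ICT1-8098_NT, -0.26 to 0.70 and -0.63 to 0.04 for the doses, and -0.47 to 0.48, -1.19 to -0.29 and -0.96 to -0.03 for the interactions. Called members under the block were 2 lower in ICT1-2_200 (reported 4), 5 higher in Col_w (7) and 1 higher and 0 lower in ICT1-2_NT (1 and 1). The planned edgeR and DESeq2 fits were not run, and limma-voom on the recovered reads was used as the count-based alternative. Depth limits MRN1, at 1 to 5 reads per Col_NT library, and BARS1, at 0, 5 and 69 reads in Col_200.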
